A study of Homo sapiens with 45 samples.

Results

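Replication-dependent histone genes are the genes whose symbols follow the patterns H1-1 to H1-6, H2AC, H2BC, H3C and H4C with a number, or the older HIST1H to HIST4H style. By this rule 60 of the 29159 genes in the deposited count tables were members, comprising 6 genes for linker histone H1, 14 for H2A, 16 for H2B, 11 for H3 and 13 for H4. The rule uses symbols and no measured value. These genes supply the bulk of new core and linker histones while DNA is copied in S phase, and their usual mRNA ends in a conserved stem-loop in place of a poly(A) tail. The stem-loop is bound by SLBP, which guides 3′ end processing, translation and decay, while some of the genes can also be transcribed further and given a poly(A) tail, a form known from differentiated and non-dividing cells. Selection on oligo(dT), as used for these libraries, favours RNA with a tail, so the values below are not of total histone mRNA. Some RNA without a tail passes such a selection, and how much of the member counts came from it was not measured.

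Palbociclib (PB) inhibits the kinases CDK4 and CDK6 and so holds cells before S phase. It was given at 1 μM to 3 human neuroblastoma cell lines of the adrenergic type, namely IMR-32 (MYCN and MEIS1 amplified, 1p loss), SH-SY5Y (ALK mutant) and SK-N-BE(2)C (MYCN amplified, 1p loss). Each line had a control group without PB (whether those cells received the solvent was not stated), a group with PB for 24 h and a group with longer PB, which meant 5 d for SH-SY5Y and IMR-32 but 7 d for SK-N-BE(2)C. With 5 biological replicates from different passages in each of the 9 groups there were 45 libraries. Control RNA was taken at the time of the 24 h samples, so in the longer comparisons the drug and the time in culture cannot be told apart. Each line is 1 model of its genotype, and its libraries are replicates of that line alone.

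The stem-loop was sought in the reference sequence behind the stop codon, since it is what separates these genes from others. Of the 60 members, 56 were found by symbol in a GENCODE annotation of GRCh37, the build of the authors' alignment. Of these, 49 lay on chromosome 6 and 7 on chromosome 1. All 56 held a 16-base stem-loop between 22 and 62 bases after the stop codon, against 86 of 20048 protein-coding genes (0.429%), a set that includes these 56. The sequences of 7 members are shown because their counts moved in different directions under PB. Capitals mark the stem-loop, and the coordinates give the capitals on GRCh37. H2AC6 lies at chr6:26124897-26124912 (+), H2BC5 at chr6:26158815-26158830 (+), H2BC21 at chr1:149857738-149857753 (-) and H3C6 at chr6:26225824-26225839 (+). H2BC9 lies at chr6:26252283-26252298 (+), H2AC20 at chr1:149858941-149858956 (+) and H3C3 at chr6:26046077-26046092 (+).
H2AC6: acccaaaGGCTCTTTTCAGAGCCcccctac
H2BC5: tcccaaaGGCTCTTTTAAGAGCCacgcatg
H2BC21: ctccaaaGGCTCTTTTCAGAGCCacccacc
H3C6: atccaaaGGCTCTTCTCAGAGCCaaccact
H2BC9: acccaaaGGCTCTTTTCAGAGCCacttaat
H2AC20: gaccaaaGGCTCTTTTTAGAGCCacccaag
H3C3: ttgaaaaGGCTCTTTTCAGAGCCactcaca

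H2AC6, H2BC21, H2BC9 and H3C3 had the same 16 letters, which 31 of the 56 members carried. The form of H2BC5 was found in 8 members. Most H4 genes had loops with another stem, in the forms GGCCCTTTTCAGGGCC (7 members) and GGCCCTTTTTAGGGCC (4 members). The members differed more in what followed. In 43 members the annotated model ended within 100 bases of the stem-loop. In the other 13, namely H2AC6, H2BC4, H2BC5, H2BC6, H2BC11, H2BC15, H2BC18, H2BC21, H3C6, H3C10, H4C8, H4C14 and H4C15, at least 1 annotated transcript ran on further. For example, the model of H2BC21 ran 1729 bases past its stem-loop in 1 exon, that of H3C6 ran 1862 genomic bases past, and that of H2AC6 ran 14432 genomic bases past through an intron. The poly(A) signal AATAAA or ATTAAA stood in the last 40 bases of a transcript in 9 of these 13 genes and in 1 of the 43 others, against 70.1% of protein-coding genes. The sources used here do not name the annotation behind the counts, and whether reads past the stem-loop were counted for a gene was not tested.

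Libraries held 13459219 to 25441812 counts. Members took 125647 counts over all libraries, of which SK-N-BE(2)C held 76052, SH-SY5Y 40611 and IMR-32 8984. After a filter on low counts 30 members were tested in SK-N-BE(2)C, 27 in SH-SY5Y and 13 in IMR-32. Of the 60, 10 were tested in every line, 18 in 2 lines, 4 in 1 line and 28 in none. A member could pass this filter through the group in which it was high, so counts over tested members describe those genes and not the whole family. Summed levels of 8 adrenergic neuroblastoma markers in controls ranged over 3909 to 5163 CPM, which are counts scaled to the library total, in SH-SY5Y, over 2024 to 3076 CPM in IMR-32 and over 2077 to 2390 CPM in SK-N-BE(2)C. At 24 h they were above all controls in each line, at 5715 to 7537, 3176 to 3982 and 2933 to 3147 CPM in this order. With longer PB they were at 4075 to 5854, 2891 to 3527 and 2571 to 3089 CPM, above all controls in SK-N-BE(2)C alone. Of 6 mesenchymal neuroblastoma markers 4 to 6 were tested in a line, and with longer PB 4 fell and 1 rose in SH-SY5Y, 3 fell in IMR-32, and 3 fell and 1 rose in SK-N-BE(2)C, where their summed level was 191 to 202 CPM in controls and 197 to 364 at 7 d. Of all genes with longer PB, 17.3%, 15.5% and 22.3% fell and 18.6%, 16.6% and 24.5% rose in these lines. Summed levels of 8 markers of other cell types were 80.9 to 141 CPM in IMR-32 controls and 27.9 to 42.1 at 5 d, and at most 54.5 CPM in the other lines. The part of these markers in the results was not tested. The IMR-32 libraries of replicate 5 stood apart over all genes in each group, with chi-square per degree of freedom against the other libraries of 56.8 to 85.9 in controls, 55.3 to 86.9 at 24 h and 22.3 to 48.6 at 5 d. IMR-32 24 h replicate 2 stood apart as well (40.4 to 86.9), while pairs of the remaining IMR-32 libraries gave at most 17.7. In the other lines the highest value was 77.8, between 7 d replicates 1 and 3 of SK-N-BE(2)C. Member counts were highest at 5 d in replicate 5, and the IMR-32 sums and named 5 d changes are given with and without replicate 5.

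The summed level of all 60 members was higher after PB in SK-N-BE(2)C and SH-SY5Y, and differed less in IMR-32. The sum in SK-N-BE(2)C was 124 CPM ± 28.8 (SD, n = 5) in controls, 203 ± 60.5 at 24 h and 460 ± 127 at 7 d. The sum in SH-SY5Y was 83.4 ± 10.9, 139 ± 24.1 and 214 ± 44.9. Every SH-SY5Y library at 24 h (104 to 165) and at 5 d (152 to 261) was above every control (70.4 to 96.4), and in SK-N-BE(2)C the 7 d libraries (279 to 612) were above all controls (92.2 to 151). In IMR-32 the sum was 32.5 ± 4.17 in controls, 24.5 ± 3.80 at 24 h and 37.5 ± 22.1 at 5 d. The last of these was 27.7 ± 2.35 (n = 4) without replicate 5, which stood at 77.0 against 25.6 to 30.5 in the others. A sum is led by its most abundant genes and was not tested. In bulk RNA, fewer cells in a phase of the cycle and less RNA per cell cannot be told apart.

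**Figure D1:**
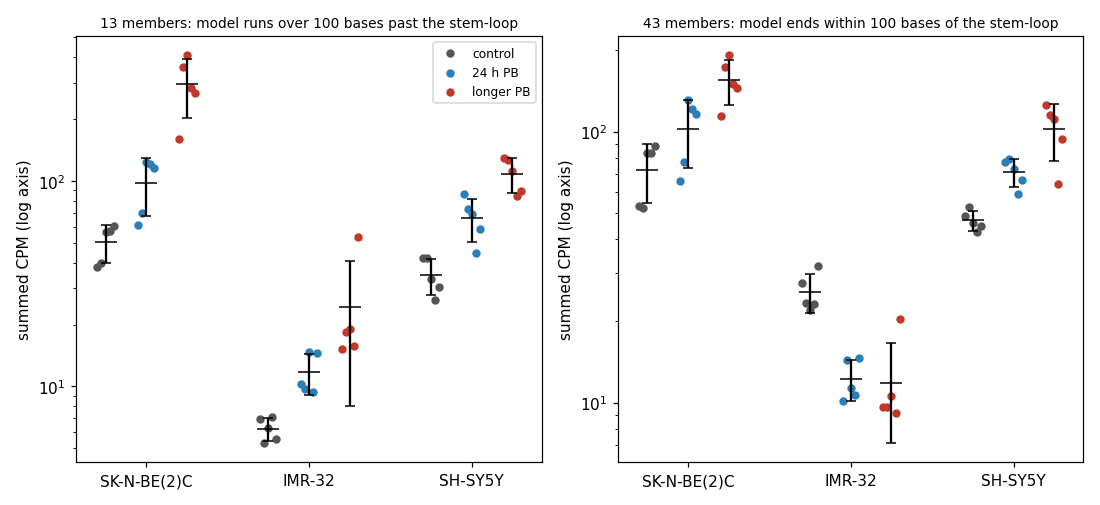
Summed CPM in each library (log axis), by line and group, for members parted by the end of their annotated model. One panel holds the 13 whose model runs over 100 bases past the stem-loop, the other the 43 whose model ends within 100 bases. Longer PB is 7 d in SK-N-BE(2)C and 5 d in the other lines. Points are libraries and bars are the mean and SD of 5. In SH-SY5Y the 13 summed to 26.5 to 42.2 CPM in controls and 84.5 to 130 at 5 d. The 43 summed to 42.7 to 52.9 CPM in controls there and 64.0 to 126 at 5 d.

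A list of 6 members described as polyadenylated in differentiated cells (H1-2, H2AC6, H2BC4, H2BC5, H2BC12 and H2BC21) held most of the member counts in SK-N-BE(2)C and SH-SY5Y, and most of the difference between controls and longer PB there. Its sum was 90.1 ± 21.4 CPM (SD, n = 5) in SK-N-BE(2)C controls, 149 ± 42.8 at 24 h and 317 ± 91.5 at 7 d. The list in SH-SY5Y was 53.4 ± 9.70, 112 ± 18.6 and 165 ± 32.4. The list in IMR-32 was 8.95 ± 1.07, 12.9 ± 3.05 and 23.7 ± 16.5, or 16.4 ± 2.24 (n = 4) at 5 d without replicate 5. The share of member counts taken by the list was 27.6% ± 2.22 in IMR-32 controls, 52.1% ± 5.17 at 24 h and 60.9% ± 5.41 at 5 d (59.0% ± 3.65, n = 4, without replicate 5), with no overlap between control and treated libraries. It was 63.7% ± 3.63, 81.2% ± 1.48 and 77.4% ± 1.48 in SH-SY5Y, again without overlap. The share in SK-N-BE(2)C was 72.6% ± 0.786, 73.6% ± 1.12 and 68.6% ± 1.35, and there the 7 d libraries (67.5% to 70.9%) were all below controls (72.0% to 74.0%).

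The summed level of the other 54 members was lower on average after PB in IMR-32 and higher at 7 d in SK-N-BE(2)C, as that of the list was there. Their sum in IMR-32 was 23.6 ± 3.39 CPM in controls, 11.7 ± 1.41 at 24 h and 13.9 ± 5.71 at 5 d (11.3 ± 0.654, n = 4, without replicate 5), and all 24 h libraries (10.1 to 13.5) were below all controls (20.3 to 27.6). Their sum in SH-SY5Y was 30.0 ± 2.73, 26.3 ± 5.97 and 48.9 ± 12.8, with overlap between controls and 24 h. Their sum in SK-N-BE(2)C was 33.9 ± 7.47, 54.1 ± 17.8 and 143 ± 36.3. The summed level of members too low to test was lower at 24 h in every line, and at the longer time it was lower in IMR-32 and SH-SY5Y on average but not in SK-N-BE(2)C. It ranged over 2.90 to 4.11 CPM in SK-N-BE(2)C controls, 1.10 to 2.11 at 24 h and 2.90 to 8.66 at 7 d. In IMR-32 it ranged over 7.46 to 12.8, 2.93 to 4.76 and 4.14 to 11.8 (at most 5.53 without replicate 5), and in SH-SY5Y over 4.84 to 5.91, 2.21 to 3.60 and 2.63 to 4.87. Controls and 24 h libraries did not overlap in any of the 3 lines. These sums carry no test, and a member that was high in 1 group could leave this set by passing the filter.

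At 24 h members moved both ways. A gene was called when the adjusted p of edgeR's quasi-likelihood test was under 0.05 and the absolute log2 fold change over 0.5. Of 30 tested members in SK-N-BE(2)C 4 fell (10.6% of all genes tested fell) and 7 rose (10.9% of all genes). In IMR-32 4 of 13 fell (all genes 10.5%) and 3 rose (7.87%). In SH-SY5Y 6 of 27 fell (11.0%) and 6 rose (10.5%). The median log2 fold change of tested members was 0.38, -0.03 and 0.21 in this order of lines, and that of all genes was 0.02, 0.06 and 0.04. Without the filter on low counts, members that fell numbered 7, 10 and 10, and in SK-N-BE(2)C 6 rose. Without the 3 libraries of replicate 5, 5 fell and 5 rose in IMR-32. H3C6 and H2BC5 rose in all 3 lines. H2AC17 and H3C12 fell in SK-N-BE(2)C and SH-SY5Y, H4C3 in IMR-32 and SK-N-BE(2)C, and H2AC20 and H2BC9 in SH-SY5Y and IMR-32. H2BC11 fell in SK-N-BE(2)C, H3C3 in IMR-32, and H2BC4 and H3C8 in SH-SY5Y. The fall of H2BC4 (log2 fold change -0.77, SE 0.281, adjusted p = 0.0296) was lost when any of 5 single libraries was left out.

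With longer PB more members were called higher than at 24 h in SK-N-BE(2)C and SH-SY5Y, and in IMR-32 with all libraries. Without the 3 libraries of replicate 5, IMR-32 had 5 members called higher at 24 h and 5 at 5 d. In SK-N-BE(2)C 24 of 30 tested members rose (all genes 24.5%) and 1 fell (22.3%), with a median log2 fold change of 2.25 against 0.01 for all genes. Without the filter 58 members had a count in that line, of which 3 fell. In SH-SY5Y 18 of 27 rose (18.6%) and 4 fell (17.3%), with a median of 0.88 against 0.01. In IMR-32 5 of 13 rose (16.6%) and 3 fell (15.5%), with a median of -0.19 against 0.00. There 9 members fell without the filter, 10 were called lower by DESeq2 and 6 fell without the 3 libraries of replicate 5, while 5 were called higher each time. H2AC6, H2BC5, H2BC21, H3C6 and H4C15 rose in every line. The member that fell in SK-N-BE(2)C was H4C3 (-1.38, SE 0.44, adjusted p = 0.01). H2AC17, H2AC20, H2BC9 and H3C12 fell in SH-SY5Y. H2AC20, H2BC9 and H3C3 fell in IMR-32, where leaving out the 5 d library of replicate 5 alone raised the number that fell from 3 to 7, H1-2 and H2BC12 among them.

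**Figure D2:**
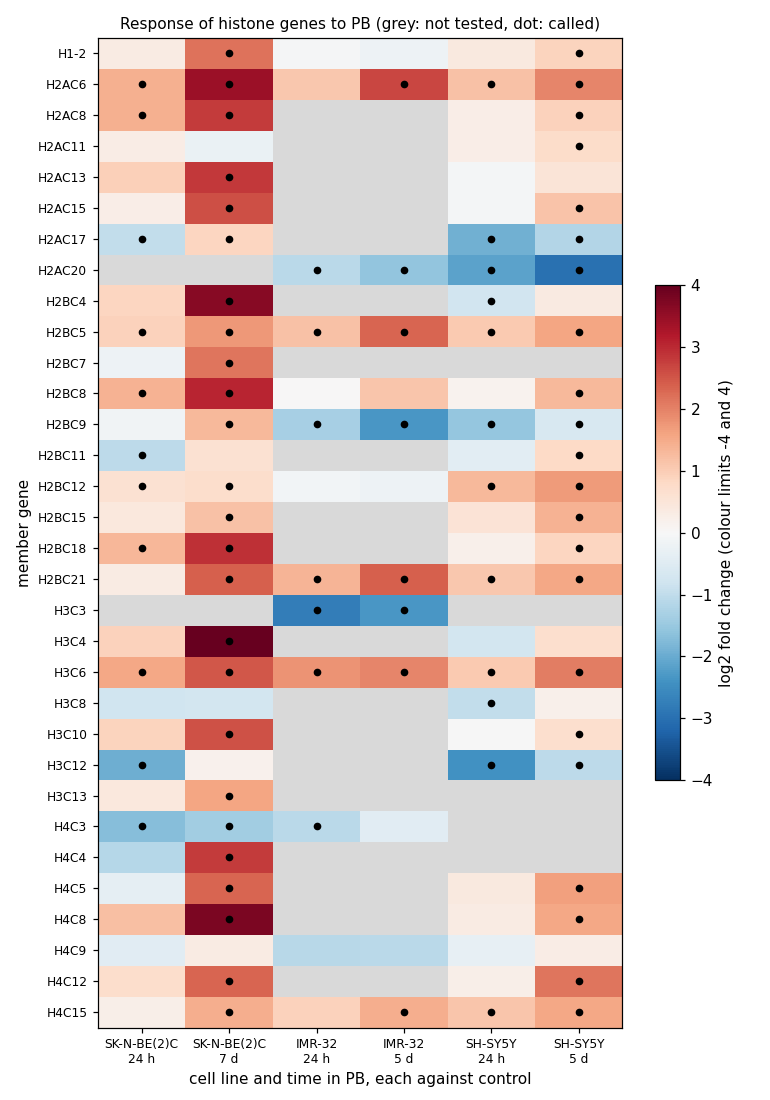
Log2 fold change of each tested member against control, by line and time, where longer PB is 7 d in SK-N-BE(2)C and 5 d in the other lines, and grey marks members that were not tested. At 7 d in SK-N-BE(2)C 24 of 30 tested members rose, while H2BC9, H2AC20 and H3C3 fell in IMR-32.

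Between 24 h and the longer time most tested members rose in SK-N-BE(2)C. There 26 of 30 rose (17.5% of all genes) and edgeR called 0 lower (14.4%), with 1 lower at an unadjusted p under 0.05 and 0 called lower by DESeq2. In SH-SY5Y 14 of 27 rose (10.5%) and edgeR called 0 lower (6.23%), with 0 lower at an unadjusted p under 0.05 and 2 called lower by DESeq2. In IMR-32 3 of 13 rose (10.8%), namely H2AC6, H2BC5 and H2BC21, and H2BC9 fell (8.86%). Members that had fallen at 24 h and rose again from there included H2AC17 (1.85, SE 0.313, adjusted p = 9.87e-05) and H3C12 (2.14, SE 0.504, adjusted p = 0.00168) in SK-N-BE(2)C. These comparisons share their 24 h libraries with the comparison of 24 h against control.

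RNAs that normally lack a tail were followed beside the members as a measure of how much such RNA passed the selection. Of 15 such RNAs, 6 were tested in SK-N-BE(2)C, and RN7SK, RPPH1, TERC and SCARNA2 rose at 7 d, by 1.24, 1.29, 1.48 and 1.48 on the log2 scale. RN7SL1 and RN7SL2 did not pass the test, and the summed level of the list was 64.2 to 107 CPM in controls and 62.3 to 89.4 at 7 d. In controls it was 39.2 to 146 CPM in IMR-32, above the sum of all members there, and 21.8 to 56.0 in SH-SY5Y. At 24 h edgeR called 0 of 6 in SK-N-BE(2)C, with 2 at an unadjusted p under 0.05. In IMR-32 and SH-SY5Y edgeR called 0 of 6 and 0 of 3 tested at either time against control, where 1 of the 6 in IMR-32 at 24 h had an unadjusted p under 0.05 and 0 of the others did at either time. Their part in the rise of members at 7 d was not tested.

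Among the H2A genes, H2AC6 had the largest counts. H2AC6 (chr6:26124373-26139344, +) encodes a canonical H2A. Its exons overlap an unnamed gene on the same strand in the annotation used here, so its counts are uncertain to that extent. H2AC6 in SK-N-BE(2)C was at 5.38, 4.39, 8.83, 7.73 and 7.79 CPM in the 5 controls, at 10.8, 11.4, 24.0, 24.6 and 22.3 at 24 h, and at 41.1, 90.5, 107, 70.3 and 64.8 at 7 d. The 3 groups did not overlap, and the log2 fold change against control was 1.42 (SE 0.309, adjusted p = 0.00165) at 24 h and 3.42 (SE 0.313, adjusted p = 1.71e-07) at 7 d, or 10.7-fold. H2AC6 in SH-SY5Y was at 8.40, 6.52, 5.32, 4.05 and 4.02 CPM in controls, 18.6, 16.1, 11.7, 8.83 and 10.3 at 24 h, and 30.8, 25.6, 26.0, 16.4 and 17.2 at 5 d. All treated libraries were above all controls, with log2 fold changes of 1.19 (SE 0.249, adjusted p = 0.000978) and 1.96 (SE 0.246, adjusted p = 4.03e-06). H2AC6 in IMR-32 was at 0.752, 0.551, 0.327, 1.0 and 0.690 CPM in controls, 0.978, 1.0, 1.98, 1.09 and 1.88 at 24 h, and 2.44, 2.89, 2.46, 2.85 and 10.9 at 5 d. Controls and 24 h overlapped and that difference did not pass the test (1.07, SE 0.472, adjusted p = 0.0926), although it did with the replicate block (1.04, adjusted p = 0.0455), without the 3 libraries of replicate 5 (0.95, adjusted p = 0.023) and without the 5 d library of replicate 5 alone. The 5 d libraries were all higher than controls, by 2.66 (SE 0.459, adjusted p = 0.000236), and by 1.96 (adjusted p = 3.29e-05) without the 3 libraries of replicate 5.

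H2AC20, another H2A gene (chr1:149858468-149858961, +), went the other way, and was singled out after its values were seen. H2AC20 in SH-SY5Y was at 2.03, 2.21, 3.23, 2.10 and 2.43 CPM in controls, 0.890, 0.699, 0.415, 0.410 and 0.367 at 24 h, and 0.560, 0.112, 0.145, 0.168 and 0.604 at 5 d. H2AC20 in IMR-32 was at 1.5, 1.20, 1.20, 1.21 and 1.49 CPM in controls, 0.293, 0.501, 0.992, 0.434 and 0.814 at 24 h, and 0.524, 0.490, 0.516, 0.438 and 0.224 at 5 d. In both lines all treated libraries were below all controls. The log2 fold change was -2.13 (SE 0.324, adjusted p = 2.83e-05) at 24 h and -2.99 (SE 0.355, adjusted p = 8.44e-07) at 5 d in SH-SY5Y. It was -1.08 (SE 0.295, adjusted p = 0.0107) and -1.59 (SE 0.308, adjusted p = 0.00059) in IMR-32, the latter being -1.38 without replicate 5. H2AC20 in SK-N-BE(2)C was too low to test, with 0.399 to 0.703 CPM in controls, 0.0499 to 0.197 at 24 h and 0 to 0.227 at 7 d, and the controls did not overlap with either treated group.

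H2AC17, also an H2A gene, was called in opposite directions in 2 lines at the longer time. H2AC17 in SK-N-BE(2)C was at 0.796, 1.10, 0.699, 1.26 and 1.57 CPM in controls, 0.450, 0.275, 0.724, 0.669 and 0.679 at 24 h, and 1.01, 2.54, 2.48, 2.16 and 1.76 at 7 d. It fell by 1.0 on the log2 scale at 24 h (SE 0.327, adjusted p = 0.0197) and was higher by 0.85 at 7 d (SE 0.291, adjusted p = 0.0155), with overlap between groups each time. H2AC17 in SH-SY5Y was at 1.35, 0.894, 0.417, 0.620 and 0.846 CPM in controls, 0.119, 0.175, 0.237, 0.182 and 0.367 at 24 h, and 0.672, 0.279, 0.290, 0.224 and 0.483 at 5 d. There it was lower at both times, by -1.92 (SE 0.398, adjusted p = 0.00061) and -1.17 (SE 0.359, adjusted p = 0.0082). Of its 100-base windows 63.7% also occur in another histone gene, and its exons overlap those of H3C12 on the same strand, so the counts of H2AC17 and H3C12 are uncertain. The call at 24 h in SK-N-BE(2)C was lost without control replicate 5 or 24 h replicate 2. H2AC11, the other H2A gene of high mean CPM, ranged over 1.92 to 3.84 CPM in SK-N-BE(2)C controls and 1.30 to 2.97 at 7 d, and did not pass the test there (-0.25, SE 0.26, adjusted p = 0.398). It rose in SH-SY5Y at 5 d from 1.63 to 2.10 CPM in controls to 2.23 to 5.02 (0.74, SE 0.242, adjusted p = 0.0119), a call that was lost without 5 d replicate 3 (adjusted p = 0.0539).

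**Figure D3:**
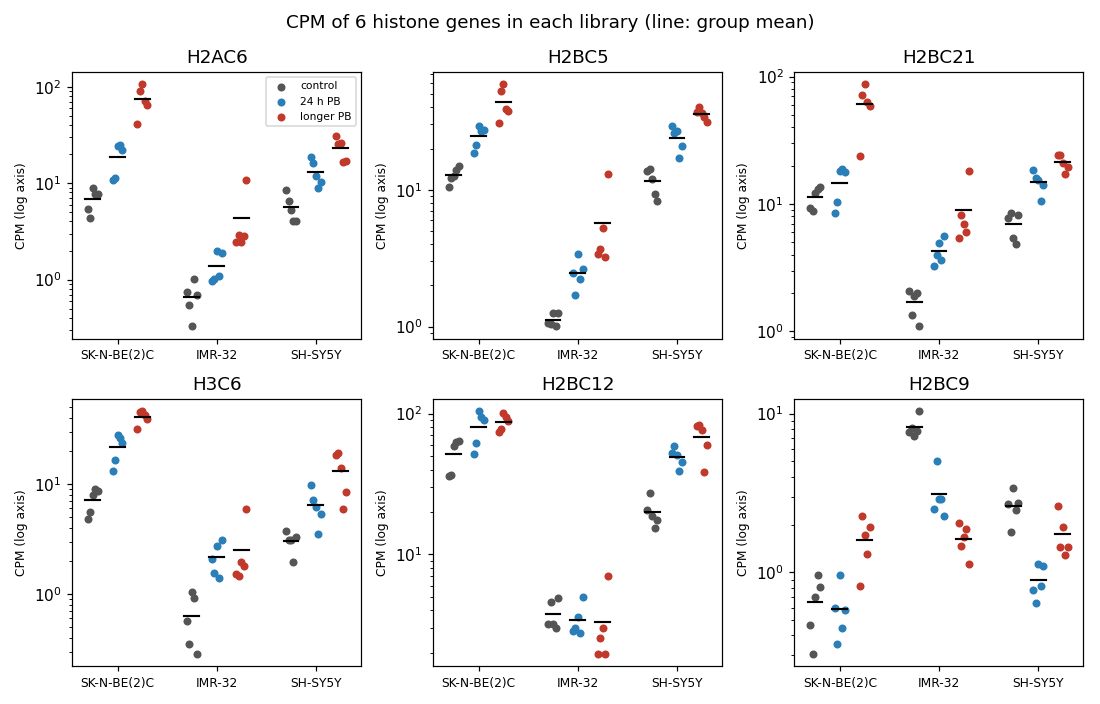
CPM of named members in each of the 45 libraries (log axis), by line and group, with 1 point per library. H2AC6 in SK-N-BE(2)C moved from 4.39 to 8.83 CPM in controls to 41.1 to 107 at 7 d, and H2BC9 in IMR-32 from 7.19 to 10.3 in controls to 1.12 to 2.04 at 5 d.

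The H2B genes gave the largest share of member counts. H2BC5 (chr6:26158350-26171577, +) encodes an H2B and rose in every line at both times. H2BC5 in SK-N-BE(2)C was at 10.4, 12.1, 12.6, 14 and 14.8 CPM in controls, 18.5, 21.1, 29.1, 26.7 and 27.4 at 24 h, and 30.9, 52.4, 59.2, 38.7 and 37.5 at 7 d. H2BC5 in SH-SY5Y was at 13.7, 14.2, 12, 9.35 and 8.25 CPM in controls, 29.3, 26.0, 26.9, 17.0 and 20.9 at 24 h, and 37.2, 40.5, 36.3, 34.0 and 31.4 at 5 d. H2BC5 in IMR-32 was at 1.06, 1.05, 1.25, 1.0 and 1.26 CPM in controls, 2.44, 1.70, 3.37, 2.23 and 2.63 at 24 h, and 3.37, 3.71, 5.22, 3.23 and 13.1 at 5 d. All treated libraries were above all controls in each line. The log2 fold changes at 24 h were 0.91 (SE 0.169, adjusted p = 0.000375) in SK-N-BE(2)C, 1.05 (SE 0.149, adjusted p = 1.74e-05) in SH-SY5Y and 1.18 (SE 0.366, adjusted p = 0.0217) in IMR-32. At the longer time they were 1.74 (SE 0.169, adjusted p = 1.70e-07), 1.57 (SE 0.149, adjusted p = 8.20e-08) and 2.33 (SE 0.364, adjusted p = 9.87e-05). The IMR-32 value at 5 d was 1.82 without replicate 5, and the IMR-32 call at 24 h was lost without 24 h replicate 3 (1.04, adjusted p = 0.056).

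H2BC21 (chr1:149856009-149858232, -) encodes another H2B. H2BC21 in SK-N-BE(2)C was at 9.32, 8.78, 12.2, 13.2 and 13.5 CPM in controls, 8.49, 10.3, 18.3, 18.7 and 17.7 at 24 h, and 23.8, 71.0, 87.4, 63.2 and 58.8 at 7 d. Controls and 24 h overlapped (0.34, SE 0.306, adjusted p = 0.393), and the 7 d libraries were all higher (2.38, SE 0.304, adjusted p = 5.46e-06). H2BC21 in IMR-32 was at 2.08, 1.35, 1.91, 2.01 and 1.09 CPM in controls, 3.28, 3.96, 4.91, 3.64 and 5.57 at 24 h, and 5.41, 8.12, 6.99, 6.03 and 18 at 5 d. It rose there by 1.37 (SE 0.318, adjusted p = 0.00373) and 2.38 (SE 0.319, adjusted p = 2.64e-05), the latter being 1.84 without replicate 5. H2BC21 in SH-SY5Y was at 7.72, 8.52, 5.42, 4.87 and 8.20 CPM in controls, 18.5, 15.9, 15.4, 10.5 and 14.1 at 24 h, and 24.4, 24.3, 21, 17.3 and 19.3 at 5 d. No treated library overlapped with controls, and the changes were 1.08 (SE 0.161, adjusted p = 2.39e-05) and 1.54 (SE 0.16, adjusted p = 1.86e-07).

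H2BC9, an H2B gene of 1 exon (chr6:26251842-26252303, +), fell in IMR-32 and SH-SY5Y and rose in SK-N-BE(2)C. H2BC9 in IMR-32 was at 7.60, 8.12, 7.19, 7.77 and 10.3 CPM in controls, 2.49, 5.06, 2.88, 2.88 and 2.25 at 24 h, and 2.04, 1.47, 1.66, 1.86 and 1.12 at 5 d. The 3 groups did not overlap, and it fell by 1.34 (SE 0.225, adjusted p = 0.000296) at 24 h and by 2.34 (SE 0.237, adjusted p = 2.40e-06) at 5 d, or by 2.13 without replicate 5. H2BC9 in SH-SY5Y was at 2.70, 1.79, 3.39, 2.48 and 2.75 CPM in controls, 0.771, 0.641, 1.13, 0.820 and 1.10 at 24 h, and 2.63, 1.45, 1.93, 1.29 and 1.45 at 5 d. All 24 h libraries were below controls (-1.56, SE 0.238, adjusted p = 2.89e-05), and at 5 d the groups overlapped while the test was passed (-0.65, SE 0.219, adjusted p = 0.0144). H2BC9 in SK-N-BE(2)C was at 0.468, 0.307, 0.699, 0.966 and 0.811 CPM in controls, 0.599, 0.354, 0.965, 0.446 and 0.582 at 24 h, and 0.821, 2.27, 1.72, 1.30 and 1.93 at 7 d. The change did not pass at 24 h (-0.16, SE 0.366, adjusted p = 0.757) and was 1.31 (SE 0.333, adjusted p = 0.0022) at 7 d, with overlap.

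H2BC12, the H2B gene with the most counts, differed between lines. H2BC12 in SH-SY5Y was at 20.6, 27.1, 18.6, 15.5 and 17.7 CPM in controls, 52.1, 58.9, 51.1, 39.4 and 45.5 at 24 h, and 81.9, 83.2, 76.5, 38.5 and 60.1 at 5 d. Every treated library was above every control, with changes of 1.30 (SE 0.195, adjusted p = 5.54e-05) and 1.71 (SE 0.195, adjusted p = 1.89e-06). H2BC12 in SK-N-BE(2)C was at 35.8, 36.6, 59.3, 62.5 and 63.7 CPM in controls, 51.2, 61.3, 104, 95.1 and 90.3 at 24 h, and 73.9, 77.7, 101, 94.3 and 87.8 at 7 d. Replicates 1 and 2 were low in controls and at 24 h alike. The changes were 0.61 (SE 0.206, adjusted p = 0.0248) and 0.72 (SE 0.206, adjusted p = 0.00603), the first of which was lost without the filter and when any of 5 single libraries was left out. H2BC12 in IMR-32 was at 3.18, 4.56, 3.21, 3.01 and 4.88 CPM in controls, 2.84, 3.0, 3.57, 2.77 and 4.95 at 24 h, and 1.98, 2.56, 2.98, 1.97 and 7.00 at 5 d. Neither IMR-32 change passed (-0.10, adjusted p = 0.847, and -0.20, adjusted p = 0.625), but without the 3 libraries of replicate 5 it was called lower at 5 d (-0.56, adjusted p = 0.0201).

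H2BC4, an H2B gene of the polyadenylated list, was at 1.4, 1.71, 2.05, 2.15 and 2.43 CPM in SK-N-BE(2)C controls, 1.80, 1.45, 5.13, 5.86 and 4.12 at 24 h, and 5.49, 32.6, 41.4, 24.3 and 20.2 at 7 d. Replicate 1 was the lowest at 7 d and still above every control (3.63, SE 0.491, adjusted p = 9.67e-06). H2BC4 in SH-SY5Y was at 1.51 to 2.79 CPM in controls, 0.546 to 1.69 at 24 h and 1.51 to 3.33 at 5 d, all with overlap. Part of its model overlaps HFE on the other strand, and the sources used here do not say which strand was counted, so its counts are uncertain.

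H3C6 led the H3 genes. H3C6 (chr6:26224427-26227701, +) encodes a canonical H3. H3C6 in SK-N-BE(2)C was at 4.82, 5.62, 7.88, 8.99 and 8.71 CPM in controls, 13.1, 16.4, 28.2, 25.9 and 23.7 at 24 h, and 31.8, 44.9, 45.9, 42.7 and 39.1 at 7 d. The 3 groups did not overlap, with changes of 1.55 (SE 0.211, adjusted p = 2.33e-05) and 2.47 (SE 0.212, adjusted p = 5.11e-08). H3C6 in IMR-32 was at 0.575, 0.351, 1.03, 0.919 and 0.287 CPM in controls, 2.10, 1.55, 2.73, 1.41 and 3.13 at 24 h, and 1.51, 1.47, 1.95, 1.81 and 5.88 at 5 d. It rose by 1.80 (SE 0.45, adjusted p = 0.0061) and 1.97 (SE 0.449, adjusted p = 0.00201), the latter being 1.21 without replicate 5. H3C6 in SH-SY5Y was at 3.71, 3.10, 3.08, 1.96 and 3.33 CPM in controls, 9.79, 7.16, 6.17, 3.55 and 5.29 at 24 h, and 18.5, 19.2, 14, 5.99 and 8.46 at 5 d. The 5 d libraries were all above controls (2.05, SE 0.319, adjusted p = 3.77e-05), while 24 h replicate 4 lay within them (1.05, SE 0.328, adjusted p = 0.0151).

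Other H3 genes went different ways. H3C10 rose in SK-N-BE(2)C from 1.54 to 3.78 CPM in controls to 7.07 to 19.9 at 7 d (2.53, SE 0.375, adjusted p = 1.99e-05), and at 24 h it did not pass (0.91, adjusted p = 0.0638), although it did with the replicate block (0.85, adjusted p = 0.0141), by DESeq2 (adjusted p = 0.0275) and when any of 4 single libraries was left out. In SH-SY5Y it was higher at 5 d (0.68, SE 0.201, adjusted p = 0.00642). H3C4 had the largest change of any tested member in SK-N-BE(2)C at 7 d, from 0.0499 to 0.446 CPM to 1.58 to 7.19 (4.59, SE 0.585, adjusted p = 3.13e-06). Its controls were too low to pass the filter by themselves, so the size of that change is uncertain. H3C4 also overlaps an unnamed gene on the same strand. H3C3, singled out after its values were seen, was at 1.15, 0.801, 0.762, 1.13 and 1.55 CPM in IMR-32 controls, 0, 0.300, 0.0992, 0.109 and 0.251 at 24 h, and 0.233, 0.272, 0, 0.274 and 0.280 at 5 d. The controls were above all treated libraries, and its changes were -2.76 (SE 0.532, adjusted p = 0.000969) and -2.32 (SE 0.507, adjusted p = 0.00146), the latter being -2.28 without replicate 5.

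Among H4 genes, H4C15 rose in every line at the longer time. It was at 1.36, 1.3, 1.95, 1.49 and 2.11 CPM in SK-N-BE(2)C controls, 1.35 to 2.29 at 24 h and 2.64 to 7.40 at 7 d (1.45, SE 0.247, adjusted p = 6.22e-05). H4C15 in IMR-32 was at 0.172 to 0.351 CPM in controls and 0.548 to 1.09 at 5 d (1.47, SE 0.387, adjusted p = 0.00525), or 1.33 without replicate 5. H4C15 in SH-SY5Y was at 0.476 to 0.947 CPM in controls and 1.62 to 2.84 at 5 d (1.53, SE 0.25, adjusted p = 3.09e-05). All 100-base windows of H4C15 (100%) also occur in another histone gene, so its counts are uncertain. H4C8 rose from 0.614 to 2.10 CPM to 8.84 to 30.3 at 7 d in SK-N-BE(2)C (3.77, SE 0.487, adjusted p = 5.79e-06). In SH-SY5Y its 5 d libraries ranged over 0.280 to 3.58 CPM and overlapped with controls (1.56, SE 0.506, adjusted p = 0.0122). This call was lost without 5 d replicate 1 (adjusted p = 0.056). Between 24 h and 5 d in SH-SY5Y H4C8 did not pass the test (1.22, adjusted p = 0.0565). It did in 4 other settings, the replicate block among them (1.06, adjusted p = 0.0112). At 24 h in SK-N-BE(2)C it did not pass either (1.22, adjusted p = 0.0609), but did in 5 other settings, DESeq2 and the replicate block among them.

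Of the linker histone genes only H1-2 was abundant enough to test within a line. H1-2 in SK-N-BE(2)C was at 4.21, 3.51, 7.39, 5.65 and 7.08 CPM in controls, 4.6, 5.27, 9.05, 8.53 and 8.15 at 24 h, and 13.6, 42.4, 38.2, 15.2 and 19.3 at 7 d. The 7 d libraries were all above controls (2.17, SE 0.339, adjusted p = 3.78e-05). H1-2 in SH-SY5Y was at 6.42 to 8.47 CPM in controls, 8.79 to 11.0 at 24 h and 10.8 to 19.3 at 5 d, and rose at 5 d (0.88, SE 0.13, adjusted p = 1.12e-05). H1-2 in IMR-32 was at 1.5, 0.902, 0.817, 0.794 and 1.84 CPM in controls, 1.12, 1.10, 0.645, 0.651 and 2.07 at 24 h, and 0.291, 0.708, 0.459, 0.767 and 2.91 at 5 d. No IMR-32 change passed, with -0.19 at 5 d (SE 0.523, adjusted p = 0.78), but without the 3 libraries of replicate 5 it was called lower (-0.85, adjusted p = 0.0461). H1-3 was low, at 0.132 to 0.446 CPM in SK-N-BE(2)C controls and 0.505 to 1.68 at 7 d, and was tested only in the fit of all 45 libraries, where no difference between lines passed.

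Members whose annotated model ran past the stem-loop and members whose model ended there were set side by side. In IMR-32, of 5 tested with a longer model, 3 rose at 24 h and 5 rose at 5 d, with median log2 fold changes of 1.18 and 2.33. Of 7 tested whose model ended at the stem-loop, 4 fell at 24 h and 3 fell at 5 d, with medians of -1.08 and -1.08. Without replicate 5, the 5 d medians were 1.82 and -1.38, and 5 rose and 6 fell. Of all genes in IMR-32, 7.87% rose and 10.5% fell at 24 h, and 16.6% and 15.5% at 5 d. In SH-SY5Y the 11 with a longer model had medians of 0.56 and 1.53, with 5 that rose and 1 that fell (H2BC4) at 24 h and 10 that rose at 5 d. The 15 others had medians of -0.08 and 0.68, with 5 that fell and 1 that rose at 24 h, and 4 that fell and 7 that rose at 5 d. In SK-N-BE(2)C the 11 had medians of 0.91 and 2.47, with 4 that rose and 1 that fell (H2BC11) at 24 h and 10 that rose at 7 d. The 17 others there had medians of 0.26 and 1.58, with 2 that rose and 3 that fell at 24 h, and 12 that rose and 1 that fell at 7 d. The shares of all genes in these lines stand with the counts of calls above. Summed CPM of the 13 genes with longer models in IMR-32 was 5.31 to 7.10 in controls, 9.39 to 14.8 at 24 h and 15.2 to 53.4 at 5 d, and that of the 43 others was 22.0 to 31.9, 10.2 to 14.6 and 9.15 to 20.3. At 5 d the libraries other than replicate 5 lay at 15.2 to 19.0 and 9.15 to 10.5. This contrast was not tested, and H2BC12 in SH-SY5Y is a member with a short model that rose.

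**Figure D4:**
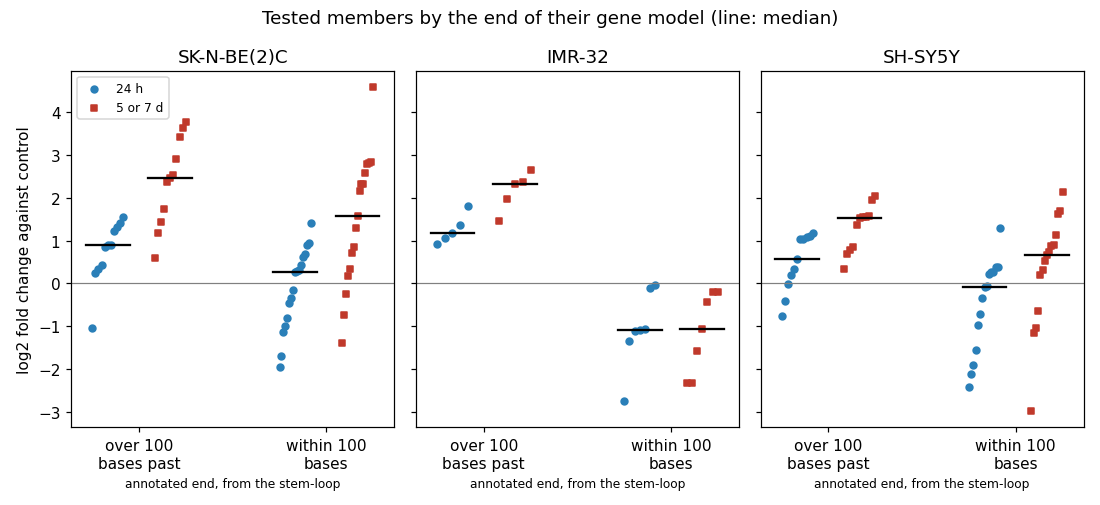
Log2 fold change against control of tested members whose annotated model runs over 100 bases past the stem-loop and of those whose model ends there, by line and time, with 1 point per gene and a bar at the median. In IMR-32 at 5 d the medians were 2.33 for 5 genes and -1.08 for 7.

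Many H2A and H2B genes stand in pairs that are read away from each other, and 10 pairs of members had starts less than 1000 bases apart. H2BC21 and H2AC20 start 235 bases apart and moved in opposite directions in IMR-32 and SH-SY5Y. At 5 d H2BC21 was higher by 2.38 and 1.54 on the log2 scale in these lines, and H2AC20 changed by -1.59 and -2.99. H2BC4 and H2AC6, 218 bases apart, rose together at 7 d in SK-N-BE(2)C, by 3.63 and 3.42, while at 5 d in SH-SY5Y H2AC6 rose by 1.96 and H2BC4 did not pass (0.35, SE 0.258, adjusted p = 0.243). H2AC15 and H2BC15, 169 bases apart, both rose in SK-N-BE(2)C (2.59 and 1.18) and SH-SY5Y (1.14 and 1.38).

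The promoters of H2AC20 and H2AC6, which also span the start of their partners, are shown because one lies between genes that moved apart and the other between genes that moved together in SK-N-BE(2)C. They were taken from RefSeq on GRCh38.p14, at chr1:149886668-149886967 (+) and chr6:26123922-26124221 (+). Capitals mark matches on either strand to the CCAAT box, to the TATA box letters TATAAA, to the octamer ATTTGCAT, and to the E2F motifs TTTCCCGC or TTTGGCGC.
H2AC20: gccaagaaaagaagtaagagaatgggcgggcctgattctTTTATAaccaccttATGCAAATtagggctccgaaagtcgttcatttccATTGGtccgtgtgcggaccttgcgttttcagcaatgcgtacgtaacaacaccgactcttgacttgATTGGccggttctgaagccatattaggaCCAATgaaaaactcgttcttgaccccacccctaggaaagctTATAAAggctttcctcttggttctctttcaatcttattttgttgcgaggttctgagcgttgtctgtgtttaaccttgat
H2AC6: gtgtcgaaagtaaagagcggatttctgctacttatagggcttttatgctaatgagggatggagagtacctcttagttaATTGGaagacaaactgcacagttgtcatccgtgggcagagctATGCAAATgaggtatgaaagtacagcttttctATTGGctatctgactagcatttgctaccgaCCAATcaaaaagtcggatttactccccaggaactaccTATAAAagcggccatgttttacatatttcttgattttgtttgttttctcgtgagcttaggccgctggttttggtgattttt

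Both hold the CCAAT box, the TATA box letters and the octamer, and neither holds the E2F letters. Of the 55 members with a promoter in that table, 46 held CCAAT (83.6%, against 39.7% of all 27305 genes in the table), 37 held TATAAA (67.3% against 14%) and 24 held ATTTGCAT (43.6% against 2.19%). The E2F letters stood in 1 member (1.82% against 2.75%). A match describes the letters in this window and not binding.

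Whether the lines responded differently was tested in 1 fit of all 45 libraries, in which 34 members were among 16282 genes. At 24 h the response in IMR-32 was lower than in SK-N-BE(2)C for 3 members (4.49% of all genes differed either way), namely H2AC11 (-2.26, SE 0.605, adjusted p = 0.016), H2AC8 (-2.16) and H2BC18 (-3.31). These 3 were too low to test within IMR-32, where they had 8 to 22 counts over the 5 libraries at 24 h, and entered the joint fit through the other lines. Exons of H2BC18 also overlap FCGR1A on the other strand. With the replicate block this count was 8. Between SH-SY5Y and SK-N-BE(2)C edgeR called 0 of 34 at 24 h (2.04%), with 7 at an unadjusted p under 0.05, of which 4 were lower and 3 higher, and 3 called with the replicate block. SH-SY5Y was higher than IMR-32 at 24 h for 2 members (3.07%), H2AC11 (2.26) and H2BC12 (1.43, SE 0.372, adjusted p = 0.0198). At 5 d 9 members differed between these 2 lines (20.8% of all genes), and 5 without the filter on low counts. H2BC12 (1.95, SE 0.374, adjusted p = 0.000104) and H2BC9 (1.75, SE 0.353, adjusted p = 0.000193) were among the 8 that were higher in SH-SY5Y, and H2AC20 (-1.34, SE 0.523, adjusted p = 0.0478) was lower there. Of the 9, 5 were too low to test within IMR-32, namely H2AC11, H2AC13, H3C13, H4C5 and H4C12, with 4 to 24 counts over the 5 libraries at 5 d. These contrasts share libraries, so they are not independent of each other. The 7 d samples of SK-N-BE(2)C have no partner at that time in the other lines, and their response was not compared.

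Genes that act with the members were followed by lists. All 25 listed S phase genes, such as RRM2, CCNE2 and TYMS, fell at 24 h in every line, and at the longer time 25 fell in SK-N-BE(2)C, 25 in SH-SY5Y and 22 in IMR-32. Between 24 h and 5 d 23 of them rose in IMR-32 and 10 in SH-SY5Y, while in SK-N-BE(2)C 1 rose and 2 fell between 24 h and 7 d. In IMR-32 5 d replicate 5, the library with high member counts, RRM2 was at 70.2 CPM against 41.5 to 52.4 in the other 4, CCNE2 at 15.6 against 8.07 to 11.2 and CENPA at 17.1 against 9.59 to 13.9. The part of these in its member counts was not tested.

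Of 18 genes for 3′ processing and decay of histone mRNA, 3, 3 and 4 fell at 24 h in SK-N-BE(2)C, SH-SY5Y and IMR-32. With longer PB 10, 7 and 3 fell, and 1 rose in SH-SY5Y. Of all genes tested, 10.6%, 11.0% and 10.5% fell at 24 h and 22.3%, 17.3% and 15.5% with longer PB, in that order. SLBP, the stem-loop binding protein, fell at 24 h by 1.39, 1.12 and 1.67 on the log2 scale, and by 1.59, 0.95 and 0.95 with longer PB. SLBP is in the S phase list as well. CASP8AP2, a component of the histone locus body, fell at 24 h by 1.22, 1.02 and 1.23. Of 16 genes for the addition and binding of poly(A) tails, 2 fell in each line at 24 h, and 5, 4 and 1 with longer PB. Of 10 genes for histone gene transcription 5, 5 and 3 fell with longer PB, while 2 rose in SK-N-BE(2)C and 1 rose in IMR-32, and 5, 5 and 6 fell at 24 h, including E2F1 (-1.62, -2.45 and -2.07) and CCNE2, which encodes cyclin E2 (-3.10, -4.57 and -5.02). NPAT, the coactivator of these genes, named here for its role, was called lower in IMR-32 at 24 h (-0.59, adjusted p = 0.00254). At 24 h it stood at -0.39 in SH-SY5Y and -0.38 in SK-N-BE(2)C, within the limit of 0.5, and with longer PB at -0.14, -0.13 and -0.12 in the order of lines above, which did not pass.

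**Figure D5:**
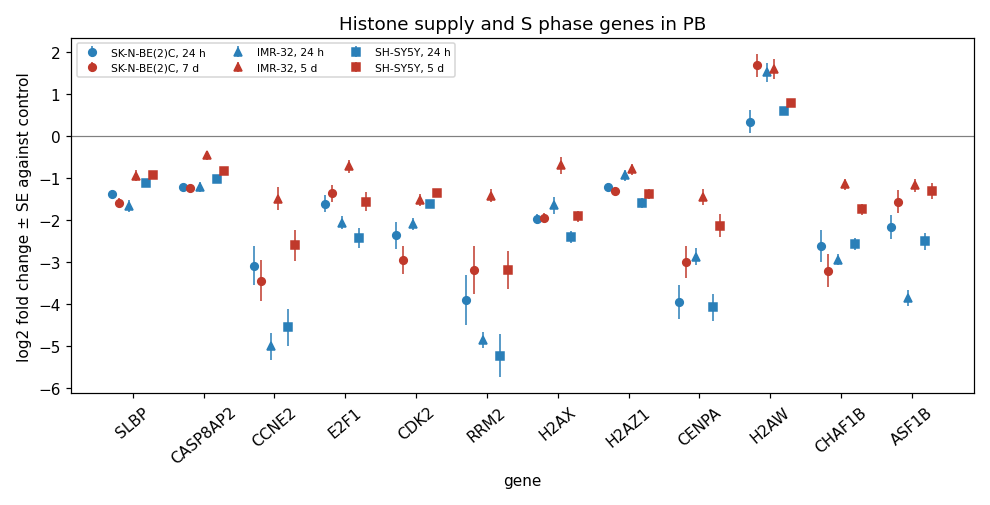
Log2 fold change against control (bars are SE) of genes from the lists for 3′ processing, transcription, S phase, variants and chaperones, and of H2AW, by line and time. SLBP fell in each line at 24 h by 1.12 to 1.67.

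Histone variants and the chaperones that place histones on DNA were followed as well. Of 12 variant genes 11, 10 and 10 were tested in SK-N-BE(2)C, SH-SY5Y and IMR-32. Of these 7, 7 and 5 fell at 24 h and 8, 9 and 6 fell with longer PB, when 1 rose in SK-N-BE(2)C. CENPA, the centromeric H3, and H2AX and H2AZ1, both H2A variants, fell in every line. H2AW, H2BU1 and H4-16, whose older symbols were HIST3H2A, HIST3H2BB and HIST4H4, are histone genes that the current symbols leave outside the rule and are not counted among the variants. H2AW rose in every line with longer PB, by 1.68, 0.78 and 1.59. H2BU1 rose in SK-N-BE(2)C at 7 d (2.12), did not pass in SH-SY5Y (0.06) and was too low to test in IMR-32, as H4-16 was in every line. Of 23 chaperone genes 13 fell in each line at 24 h, and 14, 14 and 13 with longer PB, when 1 rose in SK-N-BE(2)C. The shares of all genes that fell were 10.6%, 11.0% and 10.5% at 24 h, and 22.3%, 17.3% and 15.5% with longer PB.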

How the data were processed

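RNA of 45 cell line libraries was selected on poly(A), made into strand-specific paired-end libraries and sequenced by the authors. Per the submitters' notes, reads were trimmed with Trim Galore 0.6.4 and aligned to hg19 with STAR 2.6.1d, and the deposited read counts per gene came from STAR. Neither the strand column nor the annotation is named in the sources used here. The authors' CPM values and their own comparisons (DESeq2 1.32.0 fold changes and p-values) were not used.

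The 15 libraries of each line were fitted together in edgeR 4.0.16 (R 4.3.3) by robust quasi-likelihood with TMM factors. Low genes were dropped by filterByExpr, whose minimum was 10 counts and 15 over libraries with a proportion of 0.7, and p-values were adjusted by Benjamini-Hochberg over every gene tested. CPM scales counts to the library total. The ratio of a fold change to the root of its F statistic is given as SE. One further fit of the 45 libraries tested whether responses differ between lines. The code was tested on simulated data. Alternatives were library size factors, no filter, DESeq2 1.42.0, a replicate block, no fold change limit and each library left out.

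Libraries held 13459219 to 25441812 counts, and intervals beyond the spread of replicates were not computed. Chi-square per degree of freedom between replicates was 1.69 to 86.9 over 90 pairs, so no library was a repeat of another. Libraries with the same replicate number deviated together (every pair above 0.1) in SH-SY5Y and IMR-32 throughout and, in SK-N-BE(2)C, at 24 h with control (lowest 0.243), but in only 3 of 5 pairs that involve 7 d (lowest 0.0966 and 0.0482). The numbers come from the labels.

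Members and gene lists were chosen with earlier results of these data known. Named with values were the 2 members of highest mean CPM in each family, the polyadenylated list, up to 5 members with the largest mean rise or fall called alike in all lines, and members called in opposite directions. Others are named in lists of calls or as said. Of each other list the text names up to 3 genes a direction called alike in all lines, and others where said. Stem-loops were found in GRCh37 with a GENCODE annotation, allowing 1 mismatch within 150 bases of the stop codon, and promoters came from RefSeq.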

Additional observations from a re-analysis of the deposited data

Results flagged for a closer look

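Of 147 groups of 5 libraries examined, 13 held a library whose gap to its nearest neighbour was over 0.71 of the range of the group, where chance gives about 1 in 20 groups, or 7.35. IMR-32 5 d replicate 5 was the highest in 11 of them. It was at 2.91 CPM for H1-2 (0.291 to 0.767 in the other 4), 10.9 for H2AC6 (2.44 to 2.89), 7.00 for H2BC12 (1.97 to 2.98), 13.1 for H2BC5 (3.23 to 5.22), 18 for H2BC21 (5.41 to 8.12) and 5.88 for H3C6 (1.47 to 1.95). It was also at 1.34 for H3C10, 0.952 for H4C8, 77.0 for all members summed, 52.9 for the polyadenylated list and 11.8 for members too low to test. The same measures share this library, so they are not independent. At 24 h in IMR-32, replicate 5 was the highest for H3C10 (0.438 against 0.0543 to 0.150) and replicate 2 for H2BC9 (5.06 against 2.25 to 2.88).

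The 24 h response of H2AC11 (-2.26, adjusted p = 0.016), H2AC8 (-2.16, adjusted p = 0.027) and H2BC18 (-3.31, adjusted p = 0.00195) was lower in IMR-32 than in SK-N-BE(2)C by edgeR's test of the difference, with 8 to 22 counts of each over the 5 IMR-32 libraries at 24 h, where none was tested within the line. The 24 h response of H2AC11 (2.26) and H2BC12 (1.43) was higher in SH-SY5Y than in IMR-32. At 5 d the response in SH-SY5Y was higher than in IMR-32 for H2AC11 (1.99), H2AC13 (2.05), H2BC12 (1.95), H2BC9 (1.75), H3C13 (2.53), H4C12 (3.07), H4C5 (2.28) and H4C9 (1.44), and lower for H2AC20 (-1.34). Of these, H2AC11, H2AC13, H3C13, H4C5 and H4C12 were too low to test within IMR-32 (4 to 24 counts over the 5 libraries at 5 d). H2AC13, H3C13 and H4C12 share 58.8%, 53.5% and 91.3% of their 100-base windows with another histone gene, so their counts are uncertain.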

How the results depend on the processing

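Of 408 recomputed counts of members, 382 stayed within 1.5 times the reported count. The balance turned from more members higher to more lower at 24 h in SK-N-BE(2)C without the filter (6 and 7) and at 5 d in IMR-32 without the filter (5 and 9), by DESeq2 (5 and 10), without the 3 libraries of replicate 5 (5 and 6) and without its 5 d library alone (5 and 7). Without the filter, members called lower at 24 h numbered 10 in SH-SY5Y, 10 in IMR-32 and 7 in SK-N-BE(2)C (reported 6, 4 and 4), and with longer PB 9, 9 and 3 (reported 4, 3 and 1). Between 24 h and 5 d they numbered 2 in SH-SY5Y (reported 0), and 5 members differed between SH-SY5Y and IMR-32 at 5 d (reported 9). DESeq2 called 10 lower at 24 h in SH-SY5Y and 11 in IMR-32, 7, 10 and 3 lower with longer PB, and 2 lower between 24 h and 5 d in SH-SY5Y. More members enter these settings, since fewer are filtered. Without the 3 libraries of IMR-32 replicate 5, 5 members rose at 24 h (reported 3), 6 fell at 5 d (reported 3), and 1 differed between SH-SY5Y and SK-N-BE(2)C (reported 0). With the replicate block 8 members differed between IMR-32 and SK-N-BE(2)C at 24 h (reported 3) and 3 between SH-SY5Y and SK-N-BE(2)C (reported 0), and no count within a line moved by over 1.5 times. With single libraries left out, members called lower ranged over 2 to 4 at 24 h in SK-N-BE(2)C (2 without control replicate 5 or 24 h replicate 2) and 1 to 2 at 7 d (2 without 7 d replicate 1). They ranged over 3 to 7 at 5 d in IMR-32 (7 without 5 d replicate 5). Between 24 h and the longer time they ranged over 0 to 1 in SK-N-BE(2)C (1 without 24 h replicate 1 or 7 d replicate 1) and 0 to 1 in SH-SY5Y (1 without 5 d replicate 5). The causes were not tested. Of 2166 recomputed values of named members, 2103 kept their side of the threshold, 45 became called and 18 were lost. Among them 23 values changed sign, 0 of which passed an adjusted p of 0.05 in either setting. Counts were low for many members, and 28 entered no reported test within a line.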
